A study of Homo sapiens with 24 samples.

Results

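LINC genes and antisense genes are 2 classes of long noncoding RNA gene that are recognised by their names, and 512 of them were followed across dexamethasone treatment and across depletion of 3 coregulators in the B-cell acute lymphoblastic leukaemia line Nalm6. Members were taken from the list of transcripts the authors tested, as entries with a noncoding (NR_) RefSeq accession whose symbol begins with LINC or ends in -AS1, -AS2 or -AS3. LINC00319 was left out. The 531 accessions found in this way belonged to 172 LINC genes and 340 antisense genes, out of 9148 gene symbols and 10160 accessions listed, and each gene was represented by its accession with the highest mean count. Of the 512 members, 510 passed the filter on low counts (more than 1 CPM, a count scaled to the size of its library, in at least 2 of the 24 libraries) and were tested among 10167 transcripts.

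All cells were Nalm6 transduced with a lentiviral vector (pMK1221) that carries a short hairpin RNA, so the control line expresses one too: shNS targets a nonspecific sequence, and shG9a, shGLP and shHP1γ target the lysine methyltransferases G9a and GLP and the heterochromatin protein HP1γ, which act as coregulators of the glucocorticoid receptor. Each line received 100 nM dexamethasone (dex), a synthetic glucocorticoid, or the same volume of ethanol (etoh) for 8 h before total RNA was extracted, which gave 8 groups of 3 libraries. The 3 replicates of a group were prepared on different days. A single cell line and 1 named vector per target were used, so an effect of a target and an effect of its vector cannot be told apart.

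A LINC gene lies between protein-coding genes, and most have no established function. An antisense gene is transcribed from the strand opposite to a protein-coding gene, whose symbol it takes, and may overlap it or start close to its promoter and run away from it. Some such RNAs act on the gene opposite them, and for many the act of transcription rather than the RNA is thought to matter. The glucocorticoid receptor is a hormone-activated transcription factor that binds DNA elements near genes and enhancers, and G9a and GLP also place repressive methyl marks on histone H3 that HP1 proteins bind.

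Library totals ran from 9289533 to 14387770 counts, of which 0.619% to 0.802% fell on members. The counts are per RefSeq accession, and genes with many accessions held few of them, so the depletions could be read only weakly: EHMT1, which encodes GLP, had a mean of 3.31 CPM and changed by -0.65 on the log2 scale (SE 0.21, adjusted p = 0.0923) in shGLP with ethanol, and CBX3, which encodes HP1γ, had 3.82 CPM and changed by -0.61 (adjusted p = 0.142) in shHP1γ with dex. Neither passed the test in any comparison, and the G9a transcript was not analysed here. The paper reports that each target was efficiently depleted in the cells used for sequencing, by immunoblot for protein and RT-qPCR for mRNA. Dex did act in each line, since 5 of 5 known glucocorticoid targets rose in all 4. Of the 24 libraries, 3 stood apart from their replicates (replicate 1 of shHP1γ in both treatments and replicate 2 of shG9a with dex), and counts are given below with and without them. Defining T-cell and erythroid markers were at or near 0 (at most 3 counts in a library), whereas the myeloid gene LYZ was higher in shGLP than in shNS (log2 fold change 3.22 with dex and 2.71 with ethanol), and its part in the shGLP results was not tested. Of 9 B-lineage markers 3 passed the filter and 2 were at 0 in every library, so a 0 cannot be read as absence in this B-cell line. In each treatment 1 of the 3 was called higher in shG9a and 1 in shGLP. The median log2 change of the 3 was -0.48 with dex and -0.20 with ethanol in shG9a, and 0.48 and 0.42 in shGLP. In bulk RNA, fewer cells that express a gene and less RNA per cell cannot be told apart.

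Most members were of low abundance. Their median level was 2.53 normalised CPM (2.54 for LINC and 2.53 for antisense genes) against 7.13 for all transcripts tested, and 118 members had under 1 CPM, 217 had 1 to 5, 154 had 5 to 50 and 23 had at least 50. One RNA stood far above the rest: LINC02067, at chr3:161144215-161166030 on the plus strand of GRCh37, averaged 1593 CPM and held 23.1% of all member counts. The next were OIP5-AS1 with 348 CPM, LINC01000 with 276.7, WAC-AS1 with 158.8, NIPBL-AS1 with 110.2, EMC3-AS1 with 107 and CTBP1-AS2 with 101.4. Among the LINC class, LINC00938 with 75.2 CPM, LINC00342 with 67.0 and LINC00909 with 58.1 came next.

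The order of the levels changed once they were divided by annotated exonic length. The counts are those of the RefSeq accession that represents a gene, whereas the length is that of the gene in GENCODE. Whether these models match was not tested, so the ranks per kilobase may reflect differing annotations as well as length. Per kilobase, LINC02067 still came first with 559.9 CPM per kb, while OIP5-AS1, an RNA known to bind a microRNA, came at rank 26 with 15.6 CPM per kb over 22370 annotated exonic bases. EMC3-AS1 had 200.4 CPM per kb and WAC-AS1 46.9.

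The most abundant members moved little. LINC02067 had 1739, 1560 and 1536 CPM in shNS with ethanol and 1733, 1759 and 1628 with dex, and these ranges overlapped. With dex its level was 1585, 1511 and 1433 CPM in shG9a, below the shNS libraries, a log2 difference of -0.18 (SE 0.05, adjusted p = 0.0439) that did not pass under TMM scaling, without the replicate term, or when any shNS dex library or replicate 1 or 2 of shG9a was left out. OIP5-AS1 fell with dex in shG9a, from 368.8, 432.9 and 355.7 CPM to 311.4, 240.5 and 308.6 (log2 fold change -0.42, SE 0.08, adjusted p = 0.00223). The 240.5 CPM belong to replicate 2 of shG9a with dex, one of the 3 libraries that stood apart, and without those the log2 change was -0.27 (SE 0.05, adjusted p = 0.000452). LINC01000 passed in none of the 10 comparisons.

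**Figure D1:**
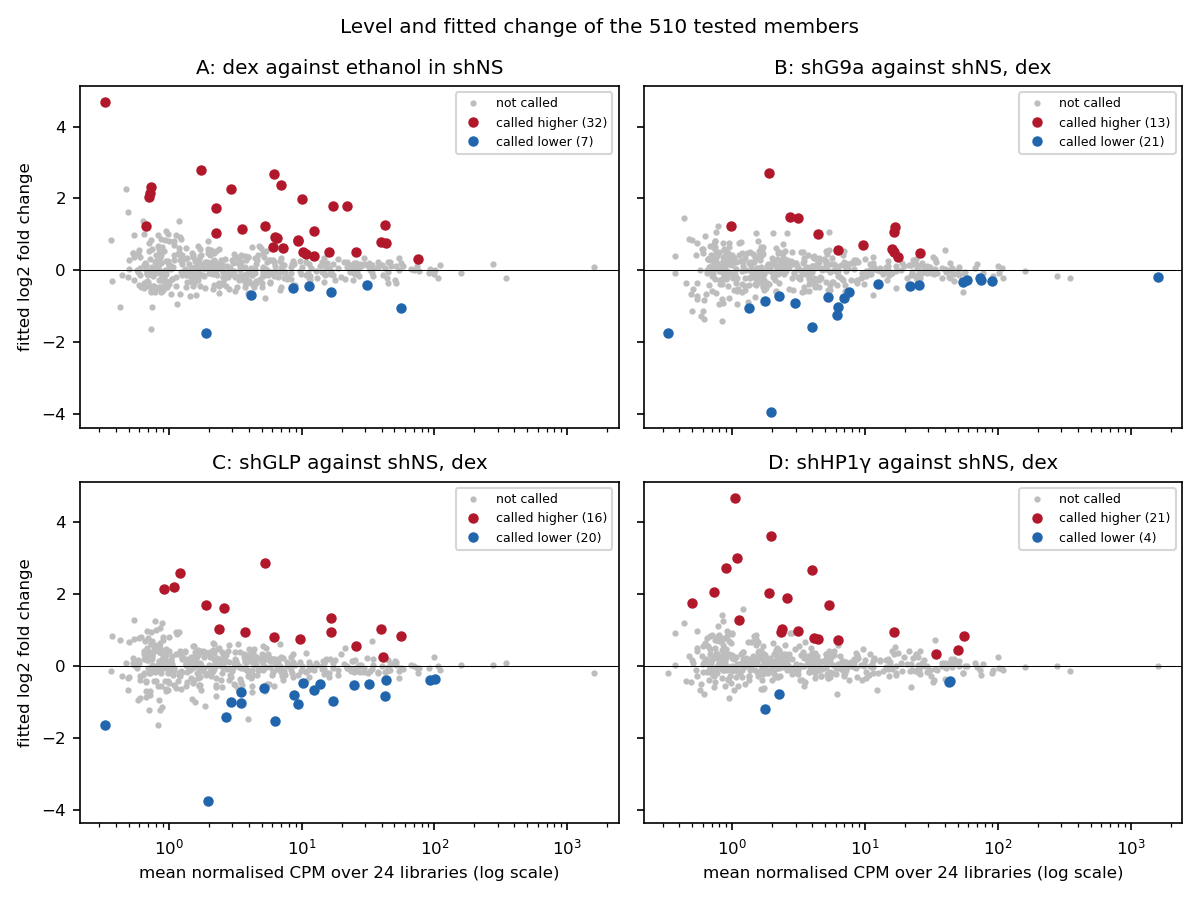
Mean level over the 24 libraries (normalised CPM, log scale) against the fitted log2 fold change for the 510 tested members in the 4 main comparisons, with members called at an adjusted p of at most 0.05 in red (higher) or blue (lower). The large changes lie among members below 100 CPM, and LINC02067 at 1593 CPM lies close to 0 in every panel.

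Comparison A asks which members respond to dex when no coregulator is depleted. In shNS, 39 of 510 members passed the test, 32 higher and 7 lower with dex, that is 7.65% of members beside 9.95% of all transcripts. Read by direction, 6.27% of members were called higher beside 4.49% of all transcripts, and 1.37% were called lower beside 5.46%, so the members called were mostly risers while all transcripts called were nearly even. At a change of at least 2-fold the count was 20, or 3.92% of members beside 1.91%. LINC genes were called in 18 of 171 cases and antisense genes in 21 of 339. Of the 32 called higher, 6 passed the filter only through dex libraries, a choice that favours a rise: GSN-AS1, LINC01954, BFSP2-AS1, LINC01619, ST3GAL5-AS1 and UMODL1-AS1. All 6 are also among the 20 with a change of at least 2-fold. Members were scarcer than all transcripts tested, and the part of level in the 2-fold share was not tested. Each call was also repeated in 9 omissions, in which 1 of the 3 replicate numbers or 1 of the 6 libraries compared was left out. The count was 25 without the replicate term in the fit, 13 without replicate 3, 23 without replicate 1 of shNS with ethanol, and 65 (48 higher, 17 lower) without the 3 libraries that stood apart. Shares of all transcripts, here and below, are those of the fit to all 24 libraries with the replicate term. They are not given for the other fits, whose counts cannot be set against them. All tests are quasi-likelihood F tests of edgeR, and p-values were adjusted by the method of Benjamini and Hochberg over all transcripts.

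In the depleted lines fewer members passed: 27 in shG9a, 11 in shGLP and 17 in shHP1γ, or 5.29%, 2.16% and 3.33% of members. The shares of all transcripts were 6.24%, 3.29% and 3.22%. In shG9a 22 members were higher and 5 lower, beside 3.26% and 2.98% of all transcripts. In shGLP 10 were higher and 1 lower, beside 1.95% and 1.34%, and in shHP1γ 15 were higher and 2 lower, beside 2.12% and 1.09%. Of the members higher in shG9a, shGLP and shHP1γ, 4, 1 and 3 passed the filter only through dex libraries, a choice that favours a rise. Without the 3 libraries the counts were 25, 37 and 21. All 32 members that rose in shNS had a positive fitted change in each of the 3 depleted lines, as had 95.8% of the 457 transcripts that rose in shNS, and 6 of the 7 that fell had a negative one, against 94.2% of 555. The exception among these 7 was LINC02363.

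Dex raised 9 members in all 4 lines, 1.76% of members beside 1.98% of all transcripts called in 1 direction in all 4. They were LY86-AS1, LINC00689, GSN-AS1, SOCS2-AS1, RARA-AS1, PAXIP1-AS1, LINC01225, LINC01226 and LINC00494.

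LY86-AS1 (NR_026970) lies at chr6:6346698-6623004 on the minus strand of GRCh37 and overlaps, head to head, the start of LY86, which encodes MD-1, a protein that pairs with the Toll-like receptor relative RP105 on B cells. It had 3.82, 1.84 and 1.78 CPM in shNS with ethanol and 14.3, 12.9 and 10.9 with dex, a 5.18-fold rise (log2 fold change 2.37, SE 0.24, adjusted p = 1.385e-07). Levels with dex were above every ethanol library in each line, and the call held whichever replicate or library was left out. The rise was 2.96-fold in shG9a (to 8.98, 9.56 and 6.72 CPM), 3.89-fold in shGLP (to 12.1, 11.6 and 12.4) and 5.48-fold in shHP1γ (to 19.9, 9.01 and 8.00). The high shHP1γ library is replicate 1, one of those that stood apart, and without the 3 libraries the shHP1γ log2 change was 2.21 (SE 0.24) in place of 2.45.

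LINC00689 (NR_024394, chr7:158799213-158822886, plus strand) rose from 2.86, 1.84 and 2.12 CPM to 16.6, 13.5 and 13.2 in shNS, which is 6.44-fold (log2 fold change 2.69, SE 0.28, adjusted p = 2.355e-07). Its level with dex was lower in shG9a, at 7.25, 5.10 and 6.20 CPM, and in between in shGLP, at 12.7, 8.22 and 9.13 CPM. In shHP1γ it was 16.7 CPM in replicate 1 and 5.07 and 5.64 in the others. The shG9a and shNS groups with dex did not overlap, and the difference passed (log2 -1.23, SE 0.24, adjusted p = 0.00175), though not without replicate 3 or without the replicate term. With ethanol the 4 lines lay between 1.09 and 4.11 CPM.

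Promoter sequences are shown for members that carry the report's contrasts, to let the reader see whether the letters of a glucocorticoid receptor site stand near the start. They are the 250 bases before and the 50 after the RefSeq start on GRCh38.p14, read 5′ to 3′ on the gene's own strand, from chr7:159008104-159008403 (plus) for LINC00689, chr6:6622777-6623076 (minus) for LY86-AS1 and chr17:40343087-40343386 (minus) for RARA-AS1. Capitals mark a match to AGAACA, 1 arm of the receptor's palindromic site, or to its complement TGTTCT.
LINC00689: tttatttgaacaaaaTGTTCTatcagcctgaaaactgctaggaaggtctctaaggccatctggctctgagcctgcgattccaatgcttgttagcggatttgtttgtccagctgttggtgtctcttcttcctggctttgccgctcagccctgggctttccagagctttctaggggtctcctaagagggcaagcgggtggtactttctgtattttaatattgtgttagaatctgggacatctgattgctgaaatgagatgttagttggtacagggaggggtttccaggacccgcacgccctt
LY86-AS1: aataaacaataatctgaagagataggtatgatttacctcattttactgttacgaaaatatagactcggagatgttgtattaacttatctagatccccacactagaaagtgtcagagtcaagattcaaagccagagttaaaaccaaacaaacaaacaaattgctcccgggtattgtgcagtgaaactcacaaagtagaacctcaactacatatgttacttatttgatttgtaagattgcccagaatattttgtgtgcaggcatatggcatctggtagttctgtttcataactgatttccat
RARA-AS1: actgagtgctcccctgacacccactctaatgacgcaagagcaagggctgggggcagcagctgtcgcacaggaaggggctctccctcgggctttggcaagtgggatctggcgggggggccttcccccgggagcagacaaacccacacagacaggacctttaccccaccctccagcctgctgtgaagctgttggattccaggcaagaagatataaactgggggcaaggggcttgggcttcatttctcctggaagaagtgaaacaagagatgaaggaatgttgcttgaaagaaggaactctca
The arm was present in the LINC00689 window and in neither of the others. Of 27305 promoters of the same length, 14.9% held it on either strand, as did 37 (12.1%) of the 307 members with a promoter in the table. Among members that rose with dex in shNS, 1 of 19 with a promoter held it, and of those that fell 0 of 3. The full palindrome, AGAACA and TGTTCT with 3 bases between them, stood in 1 promoter of the table. These letters describe a 300 base window and say nothing of receptor binding elsewhere.

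SOCS2-AS1 (NR_038263, chr12:93935798-93965544, minus strand) was the most abundant antisense riser of at least 2-fold in shNS, and overlaps, head to head, the start of SOCS2, the gene of a feedback inhibitor of cytokine signalling. It rose from 31.3, 28.7 and 29.8 CPM to 63.1, 72.3 and 80.6 in shNS (2.41-fold, log2 1.27, SE 0.10, adjusted p = 5.407e-09), with no overlap. It rose in the other lines too, by 0.99 on the log2 scale in shG9a, 1.01 in shGLP and 0.85 in shHP1γ, and these calls held whichever replicate or library was left out. Its level was lower in shGLP, at 21.6, 19.6 and 18.9 CPM with ethanol and 40.6, 40.9 and 39.8 with dex, below every shNS library of the same treatment (log2 -0.58, adjusted p = 0.00251 and -0.83, adjusted p = 8.379e-06). With dex it was also called lower in shHP1γ than in shNS (log2 -0.44, adjusted p = 0.01035, and -0.51 without the 3 libraries that stood apart).

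PAXIP1-AS1 (NR_028090, chr7:154795131-154797413, plus strand) starts 297 bases from the start of PAXIP1, which encodes a BRCT-domain protein of the DNA damage response and of histone methyltransferase complexes. It had 42.9, 32.5 and 30.8 CPM in shNS with ethanol and 65.8, 56.5 and 56.3 with dex, 1.69-fold (log2 0.76, SE 0.08, adjusted p = 2.344e-07). The fitted rise was smaller in the depleted lines, at 0.45 in shG9a, 0.30 in shGLP and 0.36 in shHP1γ on the log2 scale. With all 24 libraries the difference in rise from shNS passed in none of them (interaction test, adjusted p = 0.635, 0.267 and 0.479). The shGLP rise was kept in none of the 9 omissions, and the 3 depleted-line calls were lost without the replicate term. With dex its level was lower than in shNS in shGLP (log2 -0.38, adjusted p = 0.00245) and shHP1γ (-0.42, adjusted p = 0.00161), 2 comparisons that share the shNS libraries.

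LINC01225 and LINC01226 showed similar values. LINC01226 (NR_027085, chr1:31971827-32048907, plus strand) rose from 14.5, 8.37 and 8.75 CPM to 38.2, 30.8 and 38.8 in shNS, which is 3.43-fold (adjusted p = 0.000145). LINC01225 (NR_034112) rose 3.93-fold, from 5.55, 3.13 and 3.57 CPM to 16.8, 14 and 17.1 (adjusted p = 2.689e-05). In shG9a both had one library with ethanol, replicate 2, nearer the dex level (10.6 CPM for LINC01225 and 24.2 for LINC01226), and their rises there were 1.99-fold and 2.02-fold.

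LINC00494 (NR_026958, chr20:46988627-46999379, plus strand) rose from 10.9, 8.83 and 6.37 CPM to 20.3, 12.9 and 13.9 in shNS (1.80-fold, adjusted p = 0.00129), and its groups did not overlap. In shGLP it was lower than in shNS in both treatments, at 5.13, 3.69 and 3.02 CPM with ethanol (log2 -1.14, adjusted p = 0.000963) and 7.30, 6.78 and 8.20 with dex (log2 -1.05, adjusted p = 0.00033), and still rose with dex (log2 0.94, adjusted p = 0.00936).

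RARA-AS1 (NR_110861, chr17:38497119-38499388, minus strand), which was chosen after its values were seen, lies within RARA, the gene of retinoic acid receptor alpha. It had 12.3, 9.19 and 6.71 CPM with ethanol and 38.8, 28.4 and 28.7 with dex in shNS (3.48-fold, log2 1.80, SE 0.24, adjusted p = 1.152e-05). In shHP1γ replicate 1 was high in both treatments, at 24.7 and 47.4 CPM beside 5.70 to 9.11 and 19.3 to 19.4 in the others, so that the groups overlapped, and the log2 rise was 1.16 with it and 1.39 without the 3 libraries. With dex it was lower in shGLP (21.9, 15.5 and 12.3 CPM, log2 -0.98, adjusted p = 0.00854), a call lost without replicate 3 of shNS.

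GSN-AS1 (NR_103560, chr9:124043046-124047808, minus strand) lies wholly inside GSN, the gene of the actin-severing protein gelsolin, and passed the filter through dex libraries. It was at 0.347, 0.735 and 0.934 CPM with ethanol and 4.50, 4.64 and 4.92 with dex in shNS (6.91-fold, log2 2.79, SE 0.31, adjusted p = 8.372e-07). In shGLP it had 0.103, 0.0923 and 0.189 CPM with ethanol, 1 or 2 counts a library, and 3.81, 2.44 and 2.79 with dex, a ratio of 23.2 with a 95% counting interval of 8.76 to 86.9. With dex it was lower in shHP1γ, at 1.77, 1.74 and 2.73 CPM (log2 -1.18, adjusted p = 0.00676), a call lost without replicate 2 of shNS with dex.

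**Figure D2:**
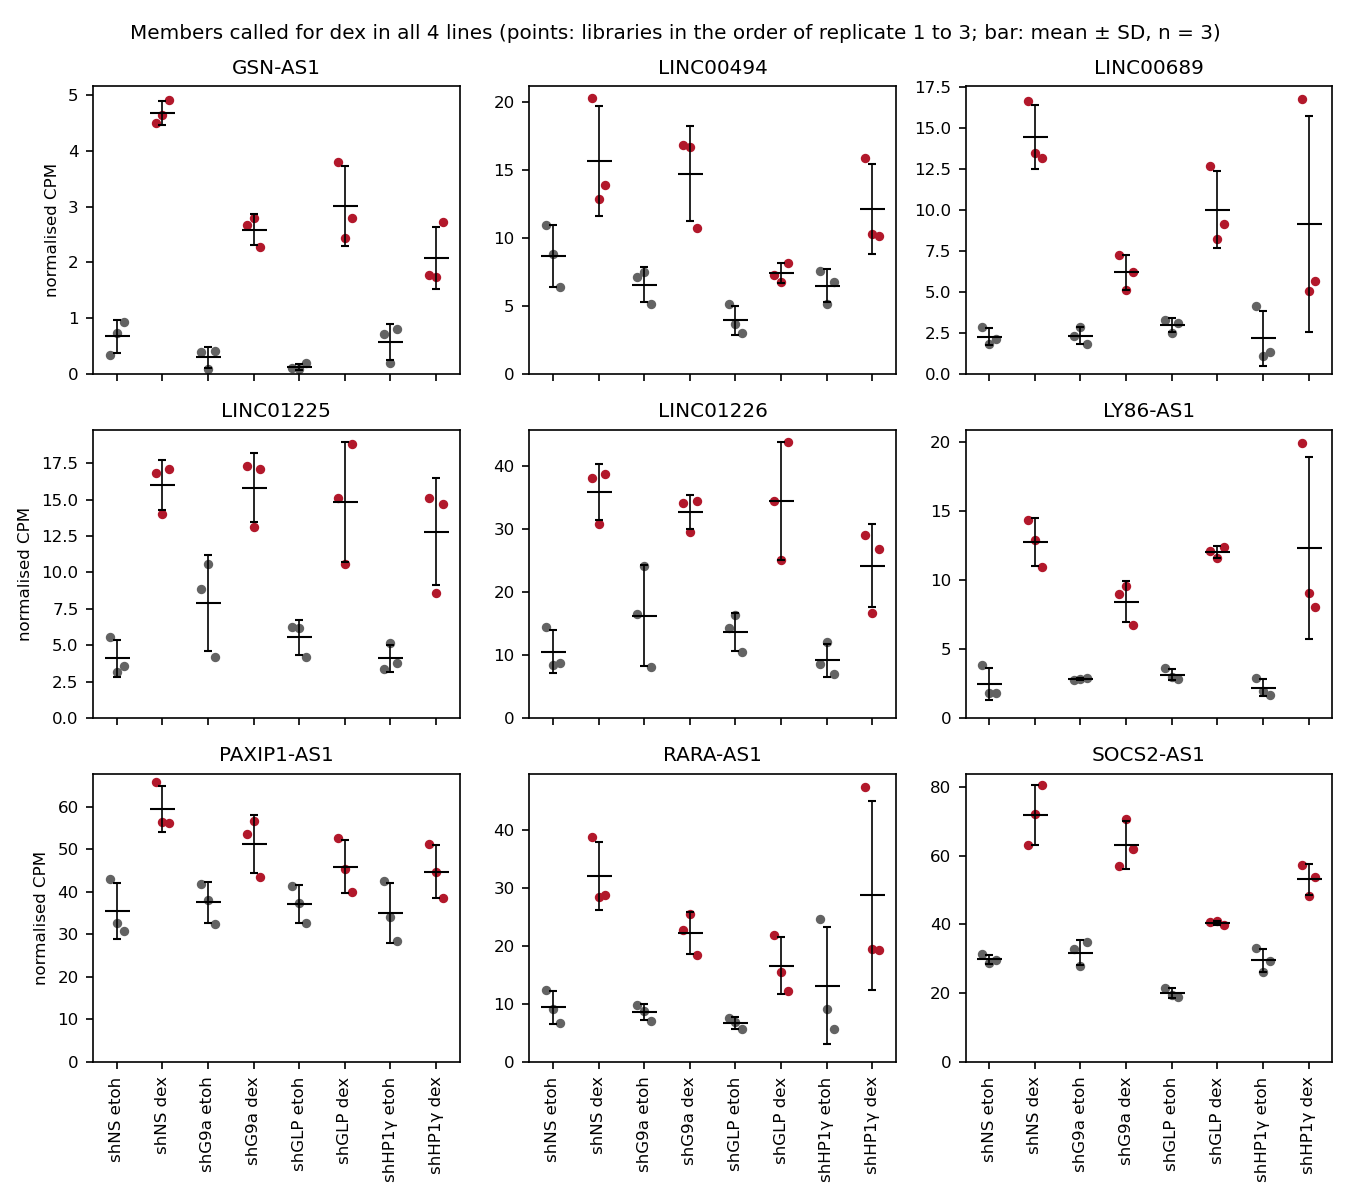
Normalised CPM of the 9 members called for dex in all 4 lines, in each of the 24 libraries (points, grey for ethanol and red for dex), with the mean and SD of each group (bars, n = 3). Every shNS dex point lies above every shNS ethanol point for each of the 9, and replicate 1 of shHP1γ with dex stands high for LY86-AS1, LINC00689 and RARA-AS1.

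Several further members with large changes in shNS were scarce. LINC01954 (NR_110575, chr2:10984350-11025278), the lowest member of all with a mean of 0.330 CPM, had 0, 0 and 1 count with ethanol and 1.01, 0.859 and 1.21 CPM with dex, a ratio of 35.3 with an interval of 5.94 to 1431 (adjusted p = 0.000137). In shHP1γ it had no counts with ethanol and was at least 3.08-fold higher with dex, taking 3 counts per library as the floor. It passed the filter only through shNS dex libraries. LINC02182 (NR_110944, chr16:88220211-88228823) rose from 1.56, 1.20 and 1.02 CPM to 6.62, 5.75 and 5.49 (4.76-fold, adjusted p = 3.207e-06), and by 4.63-fold in shG9a and 2.45-fold in shHP1γ. BFSP2-AS1 (NR_135277, chr3:133148113-133174620) lay between 0.0867 and 0.425 CPM with ethanol and between 0.807 and 1.29 with dex in shNS (4.97-fold, adjusted p = 0.0218). That call was lost without replicate 1 or 2 of either shNS group, and the change in shG9a, a ratio of 9.20 (4.24 to 23.7), was not. LINC01619 (NR_132339, chr12:92378752-92536690) rose from at most 0.552 CPM to 1.20, 1.29 and 1.21 (4.11-fold, adjusted p = 0.00348). Both BFSP2-AS1 and LINC01619 were tested because they passed the filter through dex libraries alone, so a rise was favoured by that choice. CELF2-AS1 (NR_126062, chr10:11358796-11361847) rose from 1.91, 1.93 and 1.61 to 3.22, 3.35 and 4.68 CPM (2.07-fold, adjusted p = 0.00283) and was called in no depleted line. LINC00487 and LINC01181 were among the 5 largest rises in shG9a (ratio 7.55, interval 2.98 to 24.5, adjusted p = 0.0459, and log2 2.32, adjusted p = 0.0317). LINC00487 passed the filter only through dex libraries and LINC01181 only through shG9a and dex libraries, so their place in this order rests on the libraries that let them in.

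The 7 members that fell in shNS were LRRC2-AS1, LINC00163, RGMB-AS1, LINC02363, TNRC6C-AS1, KTN1-AS1 and DENND5B-AS1. LINC00163 (NR_033840, chr21:46409779-46414001, minus strand) was the most abundant of them and fell from 70.7, 70.0 and 59.0 CPM to 34.7, 31.4 and 30.1 (2.07-fold lower, log2 -1.05, SE 0.13, adjusted p = 3.944e-06). In shGLP it had 72.0, 78.4 and 63.8 CPM with ethanol and 56.0, 64.0 and 53.3 with dex, and in shHP1γ 69.8, 104.7 and 70.5 with ethanol and 44.6, 69.1 and 60.2 with dex. All of these dex libraries lay above the shNS dex libraries (log2 0.84, adjusted p = 0.000147 in shGLP and 0.85, adjusted p = 0.000255 in shHP1γ). In shG9a it was already lower with ethanol, at 53.3, 50.8 and 34.5 CPM (log2 -0.54, adjusted p = 0.0155, lost without either replicate 2 or 3 of shG9a or replicate 1 or 3 of shNS), and it fell further to 29.7, 34.3 and 27.9 with dex.

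LRRC2-AS1 (NR_073385, chr3:46598888-46601184, plus strand) is inside LRRC2, a gene of a leucine-rich repeat protein. It fell from 1.65, 1.47 and 1.27 CPM to 0.460, 0.515 and 0.323 with dex in shNS (3.33-fold lower, log2 -1.74, SE 0.33, adjusted p = 0.00096). It had 3.31, 3.18 and 3.88 CPM with ethanol and 2.94, 3.31 and 2.44 with dex in shG9a, ranges that did overlap. RGMB-AS1, TNRC6C-AS1, DENND5B-AS1 and LINC02363 fell by 0.70, 0.48, 0.40 and 0.61 on the log2 scale in shNS (adjusted p from 0.0188 to 0.0211), and each of these calls was kept in only 2 or 3 of 9 omissions.

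**Figure D3:**
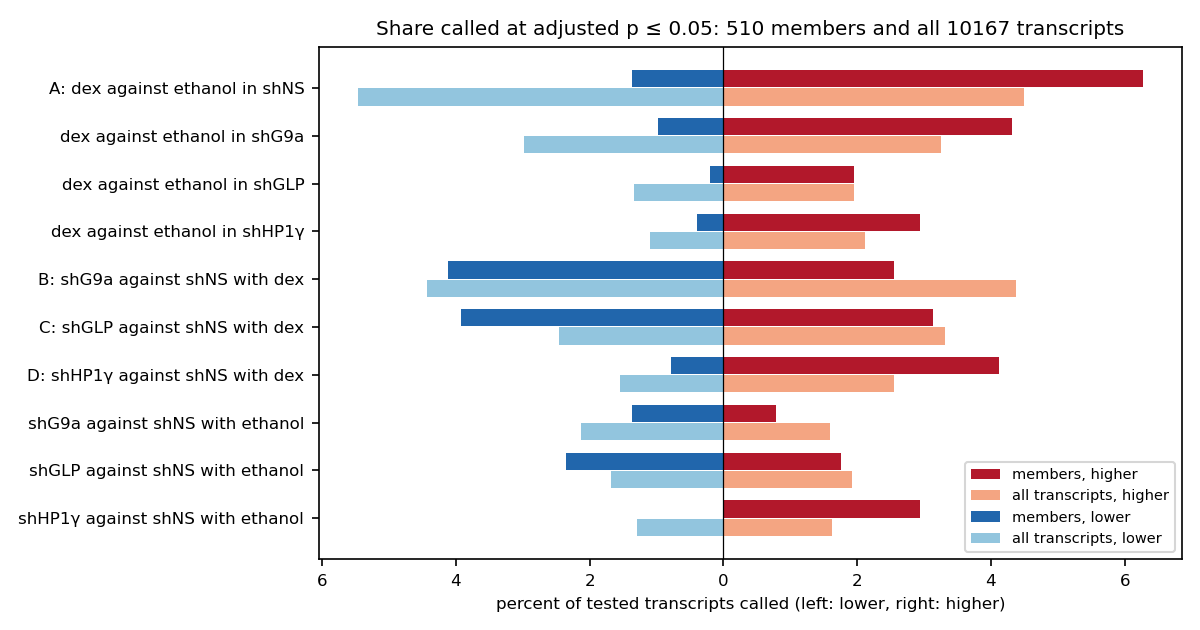
Percent of the 510 members (dark bars) and of all 10167 transcripts tested (light bars) called higher (right) or lower (left) in each of the 10 pairwise comparisons. In comparison A 6.27% of members were called higher and 1.37% lower, against 4.49% and 5.46% of all transcripts.

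Comparisons B, C and D ask how depletion of each coregulator changes levels in the presence of dex, and they share the shNS dex libraries with each other and with comparison A. In shG9a 34 members passed, 6.67% of members beside 8.80% of all transcripts, with 13 higher (beside 4.38%) and 21 lower (beside 4.43%). In shGLP 36 passed, 7.06% beside 5.77%, with 16 higher (beside 3.31%) and 20 lower (beside 2.46%). LINC01954, among the lower members in both shG9a and shGLP, passed the filter only through shNS dex libraries, a choice that favours a lower level there. In shHP1γ 25 passed, 4.90% beside 4.09%, with 21 higher (beside 2.55%) and 4 lower (beside 1.54%). Of these 21, 3 passed the filter only through shHP1γ libraries, a choice that favours a higher level there. The balance of directions in shHP1γ differed by method and by libraries: it was 10 higher and 7 lower with DESeq2 and 23 higher and 15 lower without the 3 libraries. DESeq2 differs from edgeR in scaling, dispersion and test together. Without them 46 members passed in shG9a (16 higher, 30 lower) and 57 in shGLP (23 higher, 34 lower). At least 2-fold differences were counted for 13, 15 and 13 members beside 1.03%, 1.16% and 0.748% of all transcripts. These counts include LINC01954 in shG9a and shGLP, and LINC01602 and TSPEAR-AS1 in shHP1γ, for which the filter favoured that direction.

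With ethanol 11 members passed in shG9a beside 3.73% of all transcripts, with 4 higher (beside 1.59%) and 7 lower (beside 2.13%), or 6 and 5 with TMM scaling and 6 and 6 with DESeq2. In shGLP 21 passed beside 3.61%, with 9 higher (beside 1.93%) and 12 lower (beside 1.68%). In shHP1γ 15 passed beside 2.91%, with 15 higher (beside 1.62%) and 0 lower (beside 1.29%). Of these 15, 2 passed the filter only through shHP1γ libraries, a choice that favours a higher level there. For the 0 lower in shHP1γ, edgeR gave 15 members lower at an unadjusted p under 0.05 and DESeq2 called 0. Without the 3 libraries 16 were higher and 7 lower in shHP1γ, 20 higher and 18 lower in shG9a, and 19 higher and 19 lower in shGLP. The same direction in both treatments was called for 7 members in shG9a (beside 2.40% of all transcripts), 18 in shGLP (2.63%) and 9 in shHP1γ (1.63%).

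The largest differences in shHP1γ were in 4 RNAs, LINC01602, TSPEAR-AS1, LINC00504 and LINC01164, that reached at most 0.644 CPM in any shNS library. LINC01602 (NR_130934) had 0.434, 0.276 and 0.509 CPM in shNS with ethanol and 0.644, 0.601 and 0.484 with dex, and 6.98, 8.02 and 7.21 with ethanol and 7.25, 7.27 and 6.96 with dex in shHP1γ. That is 17.6-fold (log2 4.14, SE 0.31, adjusted p = 5.126e-08) and 12.3-fold higher (log2 3.62, SE 0.29, adjusted p = 8.896e-08). In shGLP the same RNA had no counts with ethanol, at least 1.40-fold lower than shNS, and 1 count over the 3 dex libraries (ratio 17.9 lower, interval 2.86 to 742, adjusted p = 0.00559). In shG9a with dex it also had 1 count (ratio 21.2 lower, 3.39 to 877, adjusted p = 0.00312). In shG9a with ethanol the difference did not pass (ratio 2.79 lower, interval 0.948 to 9.88, adjusted p = 0.289). Its calls were thus higher in shHP1γ and lower in shGLP in both treatments, and lower in shG9a with dex alone, in comparisons that share controls.

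TSPEAR-AS1 (NR_103707, chr21:45926690-45936458, plus strand), inside TSPEAR, had 0.260, 0.184 and 0.255 CPM in shNS with ethanol and 0.276, 0.172 and 0 with dex, and 4.01, 2.97 and 3.83 and then 3.45, 4.62 and 3.67 CPM in shHP1γ. The ratios were 15.4 (interval 7.56 to 36.6, adjusted p = 1.432e-05) with ethanol and 27.6 (11.6 to 86.4, adjusted p = 1.176e-06) with dex, and the groups were far apart. In shG9a and shGLP it stayed between 0 and 0.271 CPM. TSPEAR itself had no counts at its accessions. Both LINC01602 and TSPEAR-AS1 passed the filter only through shHP1γ libraries, a choice that favours a higher level there and a high place in this order. The promoter of TSPEAR-AS1, the RNA with the largest ratio in comparison D, is at chr21:44505794-44506093 (plus strand, GRCh38.p14) and held no such arm, hence no capitals.
TSPEAR-AS1: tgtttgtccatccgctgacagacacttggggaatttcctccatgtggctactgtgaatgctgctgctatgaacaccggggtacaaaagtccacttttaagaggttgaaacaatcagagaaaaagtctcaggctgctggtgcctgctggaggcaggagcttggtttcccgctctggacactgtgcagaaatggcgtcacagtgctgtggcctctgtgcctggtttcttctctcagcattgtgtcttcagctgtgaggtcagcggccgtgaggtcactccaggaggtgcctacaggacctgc

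LINC00504 (NR_126435, chr4:14472089-14889793, minus strand) was higher in shGLP and in shHP1γ. It had at most 0.644 CPM in the shNS libraries, 0.923, 1.75 and 1.04 CPM in shGLP with ethanol and 1.59, 1.72 and 1.21 with dex, and 2.16, 2.38 and 2.76 and then 3.19, 2.04 and 2.73 CPM in shHP1γ. The ratio in shHP1γ was 13.9 (interval 6.12 to 39.2) with ethanol, and the log2 difference with dex was 3.02 (SE 0.42, adjusted p = 8.449e-05). In shGLP the ratio was 7.13 (3.00 to 20.6) with ethanol and the log2 difference 2.21 (SE 0.47, adjusted p = 0.00382) with dex. LINC01164 (NR_038365, chr10:133604719-133622535, minus strand) had 0.161 to 0.520 CPM in shNS and 1.34 to 2.77 in shHP1γ, 6.34-fold higher with ethanol and 6.63-fold with dex (adjusted p = 0.00162 and 0.000869).

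For LINC00861 and LINC01163 a single library set much of the size. LINC00861 (NR_038446) had 3.21, 2.02 and 2.97 CPM in shNS with ethanol and 1.84, 2.32 and 1.13 with dex, against 18.9, 6.63 and 10.1 and then 22.1, 7.27 and 7.43 in shHP1γ, where replicate 1 was the highest of each. Every shHP1γ library was still above every shNS library, and the log2 difference with dex was 2.67 (SE 0.31, adjusted p = 8.076e-06), or 2.27 (SE 0.30) without the 3 libraries. It was lower in shG9a, with 1.46, 0.602 and 0.248 CPM with ethanol (log2 -1.90, adjusted p = 0.0144, kept in 5 of 9 omissions) and 1.04, 0.503 and 0.262 with dex (-1.58, adjusted p = 0.0452, a call lost without either replicate 2 or 3 of shNS or any shG9a library). LINC01163 (NR_120619, chr10:129979296-130115990) had 7.87 CPM in replicate 1 and 2.65 and 1.88 in the others in shHP1γ with dex, against 0.945 to 1.29 in shNS, and its log2 difference went from 1.88 to 1.11 without the 3 libraries.

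LINC01262, LINC01221 and LINC01088 were highest in shGLP. LINC01262 (NR_121679, chr4:190580759-190582640, plus strand) had 2.60, 2.02 and 2.21 CPM in shNS with ethanol and 15.2, 14.8 and 10.8 in shGLP (5.93-fold, log2 2.57, SE 0.31, adjusted p = 1.026e-05). With dex it had 1.47, 1.55 and 0.969 CPM in shNS and 7.72, 10.1 and 10.6 in shGLP (7.27-fold, log2 2.86, SE 0.35, adjusted p = 8.068e-06). Its shHP1γ calls (log2 1.70 with dex and 1.26 with ethanol) were carried in large part by replicate 1, at 7.25 CPM with dex and 9.24 with ethanol beside 2.27 to 4.10 in the others. Without the 3 libraries the ethanol call was lost and the dex difference was 1.18. LINC01221 (NR_126351, chr1:198985262-199045864, plus strand) had at most 0.552 CPM in shNS and 3.38, 3.14 and 1.42 with ethanol and 3.28, 2.08 and 2.61 with dex in shGLP, 7.25-fold and 6.01-fold higher (adjusted p = 0.000466 and 0.000557). LINC01088 (NR_038342, chr4:79860639-80230827, plus strand) had at most 0.460 CPM in shNS and 3.38, 3.05 and 1.42 with ethanol in shGLP (log2 3.07, SE 0.55, adjusted p = 0.00111), and 2.43, 1.81 and 1.68 with dex (log2 2.16, adjusted p = 0.0144, lost without replicate 1 or 3 of shGLP or 1 or 2 of shNS).

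The 9 members lower in shGLP in both treatments included ZNF529-AS1, LINC01535, LINC02422, LINC00494 and SOCS2-AS1. The others were CTBP1-AS2, LINC01215, PTOV1-AS1 and LINC01602. ZNF529-AS1 (NR_110706, chr19:37063972-37085614, plus strand), opposite a zinc finger gene, had 4.08, 4.69 and 2.46 CPM in shNS with ethanol and 1.54, 1.57 and 1.04 in shGLP (log2 -1.42, SE 0.26, adjusted p = 0.00142), and 3.03, 3.09 and 3.71 against 1.48, 0.994 and 1.30 with dex (log2 -1.40, adjusted p = 0.00156). LINC01535 (NR_110718, chr19:37742769-37756449) differed by -1.39 with ethanol and -1.01 with dex on the log2 scale (adjusted p = 0.00107 and 0.013). LINC00665 (NR_038278, chr19:36750442-36822672) was lower with ethanol in shGLP (log2 -1.23, adjusted p = 0.00191) and in shG9a (-0.89, adjusted p = 0.0237, kept in 2 of 9 omissions). ZNF529-AS1, LINC01535 and LINC00665 lie on chromosome 19, but they were picked from a longer list, and a share by chromosome was not tested.

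LINC02422 (NR_135029, chr12:32029903-32112267, minus strand) differed between the lines in both directions. With ethanol it had 6.07, 5.15 and 3.82 CPM in shNS, 3.02, 2.32 and 1.49 in shG9a, 3.49, 2.31 and 1.61 in shGLP and 10.9, 8.91 and 7.75 in shHP1γ. Relative to shNS it differed by -1.15, -1.03 and 0.88 on the log2 scale, with adjusted p of 0.00472, 0.00912 and 0.012, and all 3 calls were lost without the replicate term. With dex it rose in shNS to 10.9, 8.25 and 8.88 CPM (1.89-fold, adjusted p = 0.00191), and stood at 3.89, 6.61 and 3.14 in shG9a and 3.81, 3.34 and 2.61 in shGLP, both below shNS (log2 -1.03, adjusted p = 0.00118 and -1.53, adjusted p = 2.529e-05).

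LINC02363 (NR_040108, chr4:185255445-185275130, minus strand) was higher in shG9a and shGLP with dex. It had 9.93, 8.67 and 6.38 CPM in shNS, 24.9, 21.1 and 12.3 in shG9a (log2 1.20, SE 0.16, adjusted p = 4.237e-05) and 24.5, 21.5 and 16.7 in shGLP (log2 1.34, SE 0.16, adjusted p = 8.068e-06). In every group replicate 3 was the lowest, and without the replicate term neither call passed. LINC01559 (NR_036555, chr12:13524023-13540101) was likewise higher in shGLP, with 46.9, 70.4 and 34.0 CPM against 24.5, 21.8 and 15.2 with ethanol (log2 1.29, adjusted p = 0.000844) and 85.6, 75.9 and 57.2 against 40.9, 37.2 and 27.9 with dex (log2 1.04, adjusted p = 0.00245), and these calls too were lost without that term.

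In shG9a the largest increases with dex were in LRRC2-AS1, NFIA-AS2 and NPPA-AS1. LRRC2-AS1 was 6.60-fold above shNS (log2 2.72, SE 0.29, adjusted p = 2.124e-06), with 3 shG9a libraries of at least 2.44 CPM against at most 0.515. NFIA-AS2 (NR_110617, chr1:61378347-61522557, minus strand) had 1.84, 1.46 and 1.70 CPM in shNS and 4.23, 5.53 and 4.02 in shG9a (log2 1.49, SE 0.27, adjusted p = 0.00115), and NPPA-AS1 (NR_037806) had 1.56, 1.46 and 2.10 against 4.15, 5.46 and 4.37 (log2 1.46, SE 0.24, adjusted p = 0.00033). All 3 held in every omission. TTC39C-AS1 (log2 1.23, adjusted p = 0.0265) and KLHL7-AS1, which was lower (log2 -1.05, adjusted p = 0.0315), did not. FBXL19-AS1 (NR_024348, chr16:30930640-30934590), beside a gene of a CpG-island binding protein, was lower in shG9a in both treatments, with 31.7, 29.8 and 29.0 CPM against 21.7, 18.2 and 20.2 with ethanol (log2 -0.59, SE 0.09, adjusted p = 0.000238). LINC01963 fell with dex in shG9a (log2 -0.55, adjusted p = 0.00199), and JHDM1D-AS1 was higher in shG9a with ethanol (log2 0.72, adjusted p = 0.0327, kept in none of the 9 omissions).

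LINC00977, LRRC2-AS1 and LINC02227, 3 members of 510, were higher than shNS in all 3 depleted lines with dex, beside 1.16% of all transcripts called in 1 direction in all 3. These comparisons share their controls. LINC00977 (NR_033916) was also higher in all 3 lines with ethanol, the 1 member of which this held, beside 0.216% of all transcripts called in all 6 comparisons. It had 13.6, 9.28 and 7.64 CPM in shNS with ethanol and 11.7, 10.4 and 7.91 with dex. In shG9a it had 20.7, 22.3 and 15.2 and then 20.1, 25.3 and 16.9 CPM, in shGLP 20.2, 19.4 and 14.2 and then 23.1, 19.2 and 16.2, and in shHP1γ 22.4, 12.3 and 13.98 and then 25.4, 16.0 and 16.7. With dex no depleted library reached down to the shNS range (log2 1.07, 0.96 and 0.94, SE 0.16 each, adjusted p from 0.000142 to 0.000904). With ethanol the differences were 0.95, 0.83 and 0.67, and the shHP1γ groups overlapped. LRRC2-AS1 differed by 1.69 in shGLP and 2.03 in shHP1γ (adjusted p = 0.00239 and 0.000339). LINC02227 (NR_109888, chr5:157747691-157836781) differed by 0.57, 0.82 and 0.74, and its shG9a call was kept in none of the 9 omissions.

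**Figure D4:**
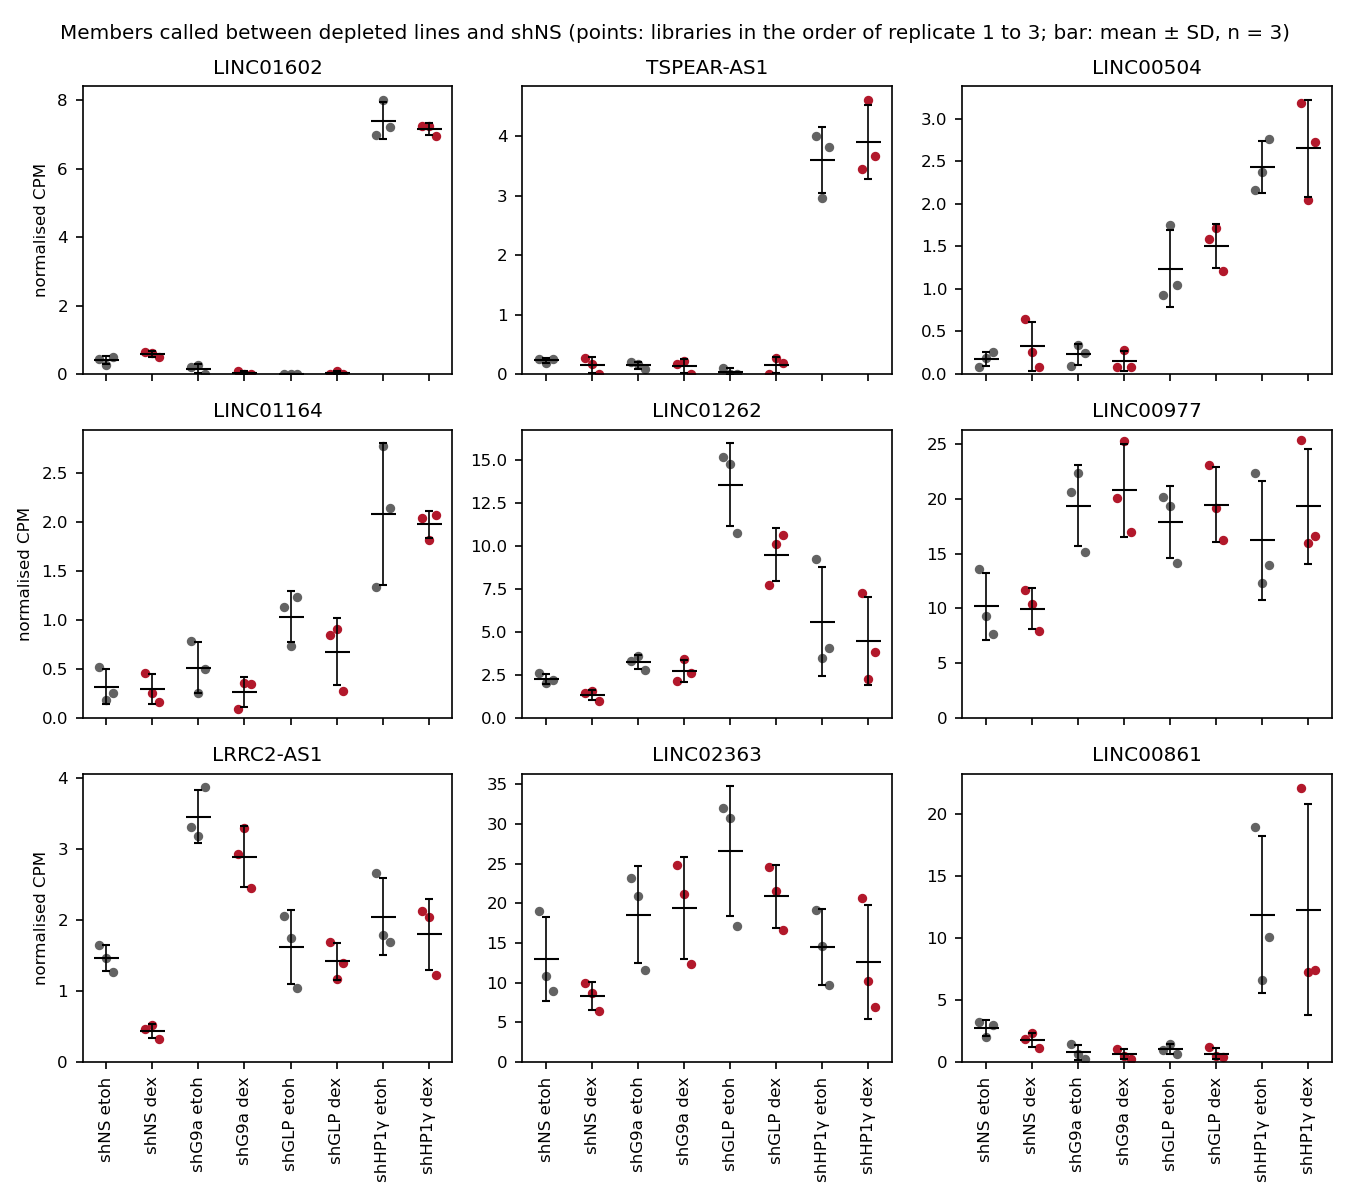
Normalised CPM of 9 members called between depleted lines and shNS, in each of the 24 libraries (points, grey for ethanol and red for dex), with the mean and SD of each group (bars, n = 3). LINC01602 and TSPEAR-AS1 lie at or below 0.644 CPM outside shHP1γ, LINC01262 is highest in shGLP, and replicate 1 of shHP1γ is the highest point for LINC00861.

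No member passed the interaction tests, which ask whether the dex response differs between a depleted line and shNS. All transcripts gave 0.0885%, 0.118% and 0.0197% called for shG9a, shGLP and shHP1γ, and the members at an unadjusted p under 0.05 numbered 24, 20 and 17 (edgeR). DESeq2 called 1 member, LINC00163, for shGLP. The fitted difference in response of LINC00163 was 0.74 on the log2 scale in shGLP (SE 0.18, adjusted p = 0.267), meaning a smaller fall with dex, and it passed with the 3 libraries left out (0.75). PAXIP1-AS1 had a difference of -0.45 in shGLP (SE 0.11, adjusted p = 0.267) and LINC00689 of -1.30 in shG9a (SE 0.43, adjusted p = 0.615). Over the 23 fits made of each, with all alternatives, these passed in 3, 1 and 2, with a lowest adjusted p of 0.000171, 0.0120 and 0.0234 and a highest at or near 1.

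Because an antisense RNA takes its name from the gene on the other strand, each was set beside that gene. Of 331 pairs placed on GRCh37, 271 overlapped, 57 were divergent with starts within 5000 bases, and 3 were apart, and both partners were tested in 195. Whether the counting used strand is not given in the sources used here, so reads of an antisense RNA and of an overlapping partner cannot be told apart. Of the 21 antisense members called for dex in shNS 15 had a tested partner, and 9 of these partners were called too, all in the same direction. Over all 195 pairs 23 partners (11.8%) were called. With dex in the other lines, 4 of 12 tested partners were called in shG9a (beside 8.21% of all pairs), 1 of 5 in shGLP and 2 of 7 in shHP1γ (beside 4.62% each), all in the same direction. Between lines with dex it was 4 of 14 for shG9a, 1 of them in the opposite direction, 2 of 11 for shGLP and 3 of 7 for shHP1γ, beside 9.23%, 7.18% and 4.10%. With ethanol it was 1 of 4, 2 of 6 and 1 of 2, beside 4.62%, 4.10% and 2.05%. The differences between these shares were not tested.

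SOCS2 rose by 1.55 (SE 0.10, adjusted p = 1.119e-10) beside 1.27 for SOCS2-AS1. The pair was lower together in shGLP (-0.84 and -0.83 with dex, -0.66 and -0.58 with ethanol) and in shHP1γ with dex (-0.39 and -0.44). RARA, at a mean of 2.12 CPM, rose by 1.85 beside 1.80 for RARA-AS1. In shG9a, shGLP and shHP1γ RARA changed by 0.95 (SE 0.39), 1.275 (SE 0.46) and 0.80 (SE 0.35). The changes of RARA-AS1 there were 1.39, 1.283 and 1.16. RARA passed in none of these 3 lines (adjusted p from 0.165 to 0.289), where RARA-AS1 did, and the difference between the 2 was not tested. GSN rose by 2.93 at only 0.399 CPM beside 2.79 for GSN-AS1, and BFSP2, a lens filament gene, by 1.00 beside 2.31. RGMB, a coreceptor for bone morphogenetic proteins, fell by 0.43 and LRRC2 by 1.15. In shG9a with dex LRRC2 was higher by 1.22 beside 2.72 for LRRC2-AS1, and it also passed with ethanol (0.73 beside 1.25). In shGLP and shHP1γ with dex, where LRRC2-AS1 was called too, LRRC2 did not pass (0.38, adjusted p = 0.356, and 0.47, adjusted p = 0.225). NPPA, the gene of a natriuretic peptide, was higher by 0.94 beside 1.46 in shG9a with dex and did not pass in shHP1γ (0.71, adjusted p = 0.143, beside 0.99).

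For other pairs the partner did not pass the test, or passed in only some comparisons or in the opposite direction. LY86 changed by -0.01 (SE 0.13, adjusted p = 0.977) at a mean of 19.3 CPM while LY86-AS1 rose by 2.37, and PAXIP1 changed by 0.19 (SE 0.08, adjusted p = 0.193) at 156.4 CPM beside 0.76. The difference between the changes of the 2 RNAs was not tested. In shG9a with dex NFIA, a transcription factor gene, was lower (-1.86, adjusted p = 0.0482, at 0.415 CPM) while NFIA-AS2 was higher, but NFIA has 4 accessions in the table and their sum gave -0.96 (adjusted p = 0.147). With ethanol in shGLP ZNF529 was lower by 1.25 on the log2 scale (adjusted p = 0.00147) beside 1.42 for ZNF529-AS1, whereas with dex its difference of -0.58 did not pass (adjusted p = 0.158) beside -1.40.

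**Figure D5:**
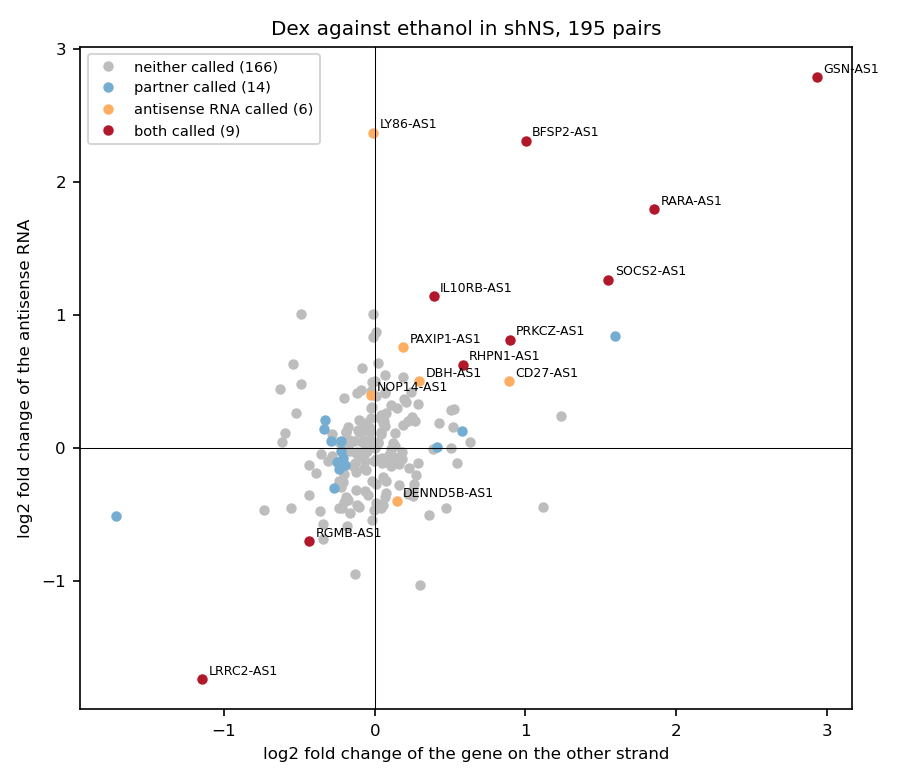
Fitted log2 fold change with dex in shNS of the antisense RNA (vertical) against that of the gene on the other strand (horizontal) for 195 pairs, with called pairs coloured. The 9 pairs in which both were called lie in the upper right and lower left, and LY86-AS1 and PAXIP1-AS1 are among the 6 called without their partner.

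A list of 29 other long noncoding RNAs outside these name classes (snoRNA host genes, NEAT1, MALAT1 and others) was set beside the members. MALAT1 had a mean of 0.04 CPM and did not pass the filter, and 3 of the list were at 0 in every library. The reason for these low counts was not tested. Of the 19 that passed the filter, 0 were called for dex in shNS by edgeR or DESeq2, with 2 at an unadjusted p under 0.05 (edgeR). Beside this, 9.95% of all transcripts were called by edgeR. With dex 1 was higher and 2 lower in shG9a (SNHG15, and SNHG6 and NORAD), 3 were lower in shGLP (GAS5 by 0.46, SNHG5 and SNHG6) and 1 was lower in shHP1γ (SNHG6, by 0.36). All transcripts gave 8.80%, 5.77% and 4.09% called in these 3 comparisons, and 19 RNAs are too few to set against such shares. GAS5, a snoRNA host whose RNA can bind the glucocorticoid receptor, was also lower in shGLP with ethanol (by 0.34), and its change with dex in shNS was 0.16 (adjusted p = 0.111).

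Over the 10 pairwise comparisons 102 of 510 members (20%) were called at least once, beside 22.9% of all transcripts. Of these, 50 were called for dex in at least 1 line, 75 for a depletion and 23 for both. Members with 1 accession of their symbol in the count table were called in 88 of 441 cases and those with more in 14 of 71.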

How the data were processed

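RNA-seq was read in 24 libraries of Nalm6 cells (8 groups, 3 biological replicates each, numbered by the labels). The deposited table holds raw counts per RefSeq accession, which the authors made from paired-end reads with HISAT2 on GRCh37 (hg19), per the labels; versions, strand use and the treatment of reads shared by accessions are not given in the sources used here. A second deposited table lists the transcripts the authors tested. It was used for accessions and symbols only, and its fold changes and adjusted p-values were not used. Of 64519 accessions counted, 40144 were at 0 in every library.

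Counts were analysed with edgeR 4.0.16 in R 4.3.3 (limma 3.58.1): upper-quartile scaling, more than 1 CPM in at least 2 libraries, group means with the replicate number as a block over all 24 libraries, the quasi-likelihood F test, and Benjamini-Hochberg adjustment over 10167 transcripts. Called means an adjusted p of at most 0.05. Log2 fold changes are fitted values with standard errors, and CPM values use the scaled library sizes. Per the labels, replicates were made on separate days, so their number entered as a block, where the study had used a correction for unwanted variation; correlations of same-numbered deviations were above 0.1 in 70 of 84 pairs (median 0.20). P-values measure the spread between these replicates. Where a group had 3 counts or fewer, an exact 95% interval of the count ratio or a floor of 3 counts per library was used, and both cover counting error only. On simulated counts with known changes for comparison A, 68.1% of 91 genes changed 2-fold and 91.5% of 106 changed 4-fold were recovered among 10036.

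Coordinates and exonic lengths came from the GENCODE annotation on GRCh37 (491 members placed), promoters from RefSeq on GRCh38.p14. Members and lists were chosen with earlier results of these data known. Named were the 5 most abundant members of each class, the 5 largest called rises and falls of each comparison, members called in comparisons B, C and D together, members with a called interaction, and the partners of named antisense genes. RARA-AS1 and other small sets were named after their values were seen. Alternatives were TMM scaling, DESeq2 1.42.0, no filter, a mean of at least 5 CPM, no replicate block, accessions summed per gene, omission of each replicate and library and, chosen after seeing the data, omission of the 3 libraries that stood apart.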

Additional observations from a re-analysis of the deposited data

How the results depend on the processing

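Of 93 named member results, 61 kept their direction and their side of the threshold under every alternative other than omissions, 36 under all alternatives, and 0 reversed. Without the replicate block the counts were 25 in comparison A, 10 in shG9a, 6 in shGLP and 10 in shHP1γ for dex, 11, 21 and 12 for depletion of G9a, GLP and HP1γ with dex, and 2, 11 and 5 with ethanol. The cause was not tested. With the 3 libraries that stood apart left out (chosen after seeing the data), the counts were 65 in comparison A, 37 for dex in shGLP, 57 in C, 38 in D, 38, 38 and 23 for the 3 depletions with ethanol, and 1, 2 and 1 for the interactions in shG9a, shGLP and shHP1γ; in comparison A all 39 calls were among the 65. With a mean of at least 5 CPM, which tests fewer members, the counts were 14 in D, 13 in shGLP and 8 in shHP1γ with ethanol. DESeq2 gave 8 in shHP1γ with ethanol and 1 interaction in shGLP, and no filter gave 3 interactions in shG9a and 1 in shGLP. Leaving out a replicate or a library gave 13 to 31 in A, 9 to 30, 4 to 10 and 5 to 17 for dex in shG9a, shGLP and shHP1γ, 6 to 31 in B, 9 to 30 in C, 6 to 22 in D, and 1 to 10, 6 to 19 and 4 to 11 for the depletions with ethanol, each lowest without replicate 3, and 0 to 0 for the interactions. Single libraries that moved a count by over 1.5 times were, with the count without them: replicate 1 of shNS with ethanol (23) in A; for dex in shG9a, replicate 2 with dex (16) and replicates 1 (16) and 3 (17) with ethanol; in shGLP, replicate 3 with dex (7) and replicates 1 (7) and 3 (6) with ethanol; in shHP1γ, replicate 1 with dex (11) and replicates 2 (11) and 3 (10) with ethanol; in B, replicate 2 of shG9a (22) and replicates 2 (17) and 3 (15) of shNS; in C, replicate 3 of shGLP (23); in D, replicates 1 (15) and 2 (13) of shNS; with ethanol, replicates 2 (5) and 3 (7) of shG9a and 1 (6), 2 (7) and 3 (6) of shNS for the shG9a count, and replicates 1 (7) and 3 (9) of shHP1γ and 1 (8), 2 (6) and 3 (5) of shNS for the shHP1γ count. Most members lie below 5 CPM, where counting error limits what 3 libraries a group can show: 64 members passed the filter only through 1 line or 1 treatment.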
